A study of Rattus norvegicus and Ovis aries with 113 samples.

Results

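The PAX genes, PAX1 to PAX9, encode transcription factors that share a paired DNA-binding domain, and their RNA was followed through sheep brain and sperm and rat brain, ovary and sperm. Members were taken by symbol, and all 9 were found among the 31304 genes of the sheep table and the 38675 genes of the rat table. The family was chosen by the high level of Pax2 in rat sperm against rat brain, so the members' values in that contrast are a description with no test. The series compared brain with gonad or germ cells in 2 mammals by bulk messenger RNA sequencing of 113 libraries, with no treatment and no named genotype. The sheep (Ovis aries) were 5 post-pubertal males, numbered 687, 688, 690, 694 and 699, each giving 10 brain regions of the same hemisphere (50 libraries) and sperm (5 libraries). The rats (Sprague Dawley) were 14 females, with 14 libraries of whole brain and 14 of ovary, and 15 post-pubertal males, with 15 libraries of whole brain and 15 of seminal fluid, the last labelled sperm. The labels do not say whether a brain library and a gonad library with the same number come from the same rat. Within a sex both tissues carry the same set of numbers, and the main rat fits did not pair them. Sheep and rat samples also differed in RNA extraction and library kit, so levels were not compared between the species. A bulk library cannot tell fewer cells of a type from less RNA in each cell.

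PAX proteins act mainly in the embryo, where they set out organ fields and neural territories, and some stay on in adult cell types. PAX2, PAX5 and PAX8 form a subfamily known for the border of midbrain and hindbrain, for the kidney and genital ducts (PAX2, PAX8), for the thyroid (PAX8) and for B lymphocytes (PAX5). PAX3 and PAX7 mark the dorsal neural tube, neural crest and muscle progenitors. PAX6 and PAX4 form another pair: PAX6 is needed for the eye and forebrain and stays on in cerebellar granule cells, and PAX4 is known from the endocrine pancreas, retina and pineal gland. PAX1 and PAX9 act in the skeleton of the trunk and in the pharyngeal pouches.

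Total counts per library, in units of 1000000 counts, were 57.0 ± 5.05 in sheep brain (SD, n = 50), 41.0 ± 19.8 in sheep sperm (n = 5), 63.4 ± 21.1 and 52.7 ± 15.0 in female and male rat brain (n = 14 and 15), 55.4 ± 2.96 in ovary (n = 14) and 49.2 ± 13.6 in rat sperm (n = 15). Levels are CPM, counts per 1000000 counts of the library, with totals scaled by the trimmed mean of M-values (TMM) within a species, are not divided by gene length, and are therefore compared between samples and not between genes. A gene was called where edgeR's quasi-likelihood test, run over all genes past the low-count filter, gave a Benjamini-Hochberg adjusted p under 0.05 with a log2 difference of 1 or more in size. The labelled tissues carried their markers in the group means: 5 of 5 brain genes were at 1 CPM or more in the mean of each brain group, 5 of 5 granulosa cell genes in ovary, and 7 of 8 (sheep) and 8 of 8 (rat) late spermatid genes in sperm. Single rat sperm libraries differed widely in the late spermatid genes. Prm1 ran from 11.7 CPM in library 6 to 4992 CPM in library 7. Tnp1 ran from 0 CPM in library 17 to 5010.5 CPM in library 14. The sperm libraries also held other cells' RNA. Summed leukocyte markers were 13717 to 157820 CPM in sheep sperm against at most 46.4 CPM in sheep brain. Summed epithelial markers (keratins, EPCAM and others) were 558 to 3226 CPM in rat sperm against at most 31.9 CPM in rat brain, while brain genes summed to at most 7.57 CPM in rat sperm. Rat sperm libraries 17, 16 and 7 had only 300, 320 and 441 genes with 1 to 3 counts, against 2545 to 4692 in the other 12, and results in rat sperm were also computed without libraries 16 and 17. In rat brain libraries 1 (female) and 4 (male), 94.8% and 89.2% of counts fell on genes annotated as ribosomal RNA, against 2.97% to 59.6% in the other 27 brains. Their PAX values rest on few counts (95 and 333 of Pax6) and on the scaling, so results in rat brain were also computed without them.

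In rat sperm Pax2 and Pax8 were high in all 15 libraries, while Pax6 and Pax3 were near or at 0 in most. Rat Pax2 lies at chr1:253555447-253646623 (GRCr8, the RefSeq gene span). Pax8 lies at chr3:27584000-27641094 and shares 26957 bases with the long non-coding RNA gene LOC134486348, and how the authors' counting treated strand is not given in the sources used here. The 250 bases before the RefSeq start of these members are shown because their counts moved together from library to library. They were read 5′ to 3′ from RefSeq sequence of GRCr8, and capitals mark matches, on either strand, to the motifs searched: the TATA box TATAAA, the CCAAT box, the GC box GGGCGG and, last, the E-box CACGTG.
Pax2: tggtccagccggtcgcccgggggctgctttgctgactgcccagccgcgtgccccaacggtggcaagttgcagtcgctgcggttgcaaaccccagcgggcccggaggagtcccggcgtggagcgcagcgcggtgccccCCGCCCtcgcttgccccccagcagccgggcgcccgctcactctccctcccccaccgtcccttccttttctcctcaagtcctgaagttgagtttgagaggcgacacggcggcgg
Pax8: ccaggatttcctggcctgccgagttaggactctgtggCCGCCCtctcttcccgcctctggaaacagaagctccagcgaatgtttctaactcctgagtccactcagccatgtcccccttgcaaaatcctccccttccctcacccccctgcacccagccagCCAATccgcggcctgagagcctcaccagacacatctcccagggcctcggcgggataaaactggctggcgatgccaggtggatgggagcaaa
The Pax2 stretch (chr1:253565672-253565921, + strand, a start inside the gene span) has 71.2% G and C, above that of 93.1% of 33469 rat promoters of the same length, and 25 CpG dinucleotides. The Pax8 stretch (chr3:27640632-27640881, − strand, also inside the gene span) has 60.8% G and C and 9 CpG, against medians of 51.2% and 5 over all promoters. Both hold 1 GC box and no TATAAA or CACGTG, and Pax8 also holds 1 CCAAT. Across all 33469 promoters a GC box was found in 30.5%, CCAAT in 34.0%, TATAAA in 12.9% and CACGTG in 5.59%. Promoter sequences matched 8 of the 9 members; Pax5 had none in that table.

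Pax2, which directs the growth of the kidney and genital ducts in the embryo, stood at 54.4, 255 and 344 CPM in the lowest, median and highest of the 15 rat sperm libraries. Rat brain of both sexes gave 0.962, 3.07 and 9.46 CPM (29 libraries), and ovary gave 0.928, 3.26 and 10.0 CPM (14 libraries). Every sperm library lay above every brain and ovary library. The mean was 244 ± 90.2 CPM in sperm (SD, n = 15) and 2.98 ± 1.03 CPM in male brain (n = 15), a fitted log2 difference of 6.38. The sperm mean was 237 ± 92.9 CPM without libraries 16 and 17 and 230 CPM of unscaled totals.

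Pax8, its close relative, stood at 15.5, 68.3 and 112 CPM in the lowest, median and highest sperm library. The same values were 0.0359, 0.273 and 1.42 CPM in brain of both sexes and 1.85, 9.59 and 15.5 CPM in ovary. The lowest sperm library (number 14, 15.45 CPM) fell just under the highest ovary library (number 21, 15.51 CPM), and no sperm library overlapped brain. The fitted log2 difference between sperm and male brain was 7.69, and the means were 69.9 ± 28.2 and 0.337 ± 0.241 CPM. Sperm held 3.56 ± 0.644 counts of Pax2 per count of Pax8 (SD, n = 15, range 2.95 to 5.33), ovary held 0.470 ± 0.204 (n = 14), and female and male brain held 11.8 ± 7.24 and 11.6 ± 5.91. The brain ratios are noisy, with medians of 8.5 and 9.18. They rest on as few as 2 Pax8 counts, in female library 19 (ratio 31) and male library 4 (ratio 18). Ovary lay below every sperm library in this ratio, and the highest value in sperm belonged to library 17.

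Of the 9 members, 6 passed the low-count filter in rat sperm against male brain. Their fitted log2 differences were 6.38 for Pax2, 7.69 for Pax8, 0.25 for Pax5, −1.78 for Pax7, −5.15 for Pax3 and −5.17 for Pax6, and without brain library 4 those of Pax2 and Pax8 were 6.37 and 7.65. Pax6 had no count in 8 of the 15 sperm libraries and reached 4.33, 1.47 and 0.555 CPM in libraries 14, 7 and 3, against 11.5 to 26.2 CPM in male brain, where library 4 gave the highest value (3.27 CPM of unscaled totals). Pax3 had a count in 4 sperm libraries and did not exceed 0.216 CPM, and Pax7 did not exceed 0.817 CPM. Pax9 was filtered out, with a mean of 0.822 ± 0.591 CPM in sperm, 0.875 ± 0.333 CPM in ovary and 0.0573 CPM in brain of both sexes. Pax1 had 5 counts in all sperm libraries together, and Pax4 had 20.

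**Figure D1:**
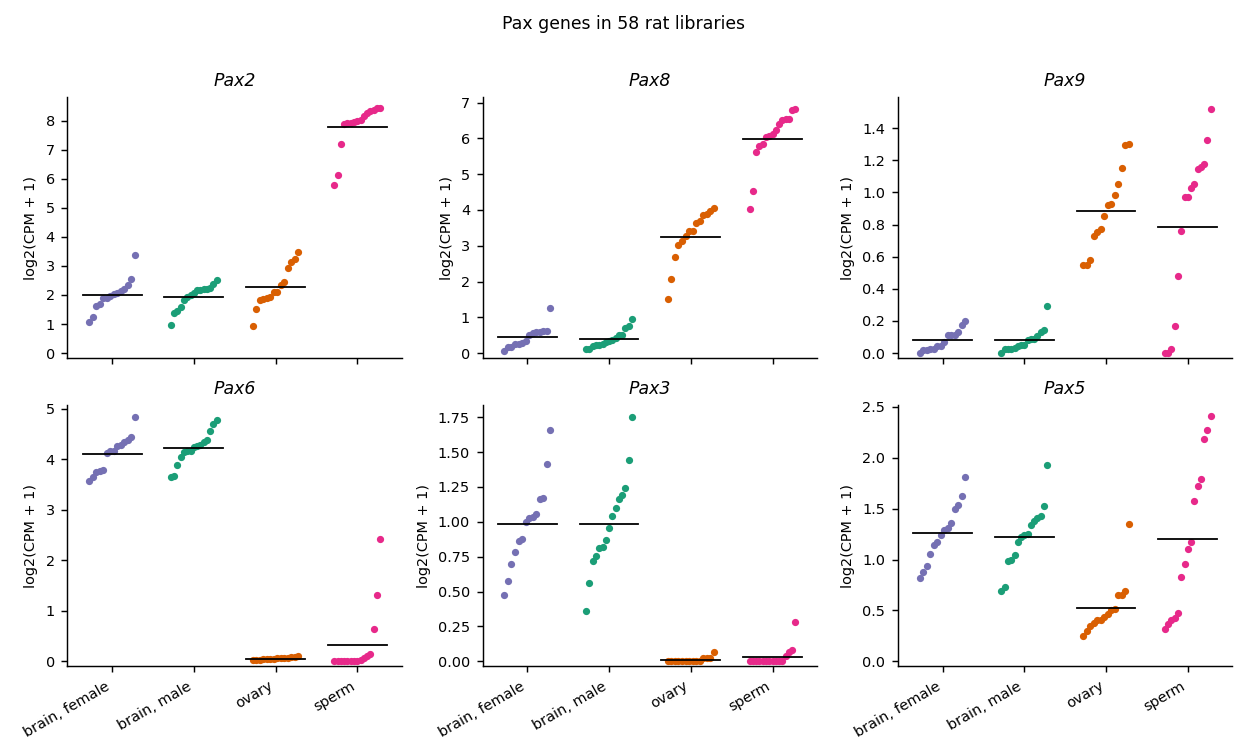
Pax2, Pax8, Pax9, Pax6, Pax3 and Pax5 in 58 rat libraries, on a log2(CPM + 1) scale. Points are libraries in rising order within a group and black lines are group means of that scale; Pax2 in sperm (54.4 to 344 CPM) lies above all other groups, and Pax6 is high in brain (10.8 to 27.3 CPM).

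Other genes of the organs that PAX2 and PAX8 serve were read beside them. Of 11 regulators of the nephric and genital ducts, 6 were tested in rat sperm against male brain, of which 3 were higher and 1 was lower by the call rule. Over all 20480 genes tested 59.1% were called (27.7% higher and 31.5% lower), so 4 of 6 is near the background share. Among the higher genes Gata3 and Emx2, duct regulators, had means of 496 and 102 CPM in rat sperm against 1.68 and 8.10 CPM in male brain. Hoxa9, Hoxa10, Hoxa11 and Hoxa13 stayed under 1 CPM in the sperm mean. In the kidney list 0 of 5 genes reached 1 CPM, and Umod, the tubule protein uromodulin, was at 0.0120 CPM. In the thyroid list 3 of 4 genes reached 1 CPM. Slc5a5, the sodium iodide symporter and a known target of PAX8 in the thyroid, ranged from 0 to 563 CPM over the sperm libraries with a mean of 161 CPM. The partner genes that work beside PAX genes in several organs (12 listed) gave 2 higher (Six5, Eya3) and 4 lower (Six3, Eya4, Dach1, Dach2) of 9 tested. Their median log2 difference was −1.38, beside −0.03 over all genes tested.

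Levels of Pax2 differed between sperm libraries, and these differences were set beside 3 marker lists on the log2(CPM + 1) scale. Pax2 was lowest in libraries 14 and 7 (54.4 and 68.5 CPM), whose late spermatid scores were highest (10.6 and 10.0), while library 3 gave 147 CPM at a score of 8.74. The other 12 libraries had 234 to 344 CPM at scores from 2.47 to 7.45. Pearson's r of Pax2 with the late spermatid list was −0.82 (two-sided permutation p = 0.00055, adjusted over 3 relations 0.00165, n = 15), and Spearman's rho was −0.59 (permutation p = 0.0241, adjusted 0.0722). Without libraries 14 and 7, the farthest from the median score, r was −0.51, and with unscaled totals it was −0.63 and, without them, −0.02. The relation therefore rests on those libraries. For the epididymis list r was −0.10 (rho −0.10, permutation p = 0.734 and 0.733, adjusted 0.734 and 0.733), and for the leukocyte list r was 0.16 (rho 0.15, permutation p = 0.570 and 0.592, adjusted 0.734 and 0.733). Leaving out the 2 libraries farthest from each median gave r of 0.52 for the epididymis list and 0.06 for the leukocyte list.

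Genes whose level followed that of Pax2 most closely over the 15 sperm libraries, among 14260 genes with a mean of at least 1 CPM, were Traf7 (r = 0.985), Etv6 (0.984), Irak1 (0.976), Pgap2 (0.975) and Lad1 (0.974). Pax8 stood 55th with r = 0.956. These are descriptions over libraries that share a scaling and a cell makeup, with no p.

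Pax6 and Pax5 differed between sperm libraries in other ways. Relations of members with marker lists, 8 in all and chosen after the values had been seen, were tested as a family. Their p-values, here and for ovary and brain below, do not account for that choice and describe these libraries only. Pax6 in sperm went with the late spermatid list (r = 0.82, rho = 0.82, permutation p = 1e-05 and 0.00049, adjusted 2.67e-05 and 0.00131, n = 15; r = 0.74 without libraries 7 and 14). Only 7 libraries held a Pax6 count, and only libraries 14 and 7 passed 1 CPM. The next were library 3 at 0.555 CPM and library 15 at 0.0977 CPM, so the r without libraries 7 and 14 leans on library 3. Pax5, which B lymphocytes need to keep their identity, ranged from 0.246 to 4.31 CPM in sperm and went with the B cell list (r = 0.85, rho = 0.76, permutation p = 5e-05 and 0.00153, adjusted 8e-05 and 0.00306; r = 0.76 without libraries 8 and 10). Libraries 10, 8 and 17 had the most Pax5 (4.31, 3.83 and 3.56 CPM). Library 8 also had the highest B cell score, with Cd79a at 34.1 CPM. The B cell list reached 1 CPM in 4 of 6 genes and summed to 3.63 to 64.2 CPM per sperm library against at most 1.83 CPM in rat brain; its part in the Pax5 level was not tested.

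**Figure D2:**
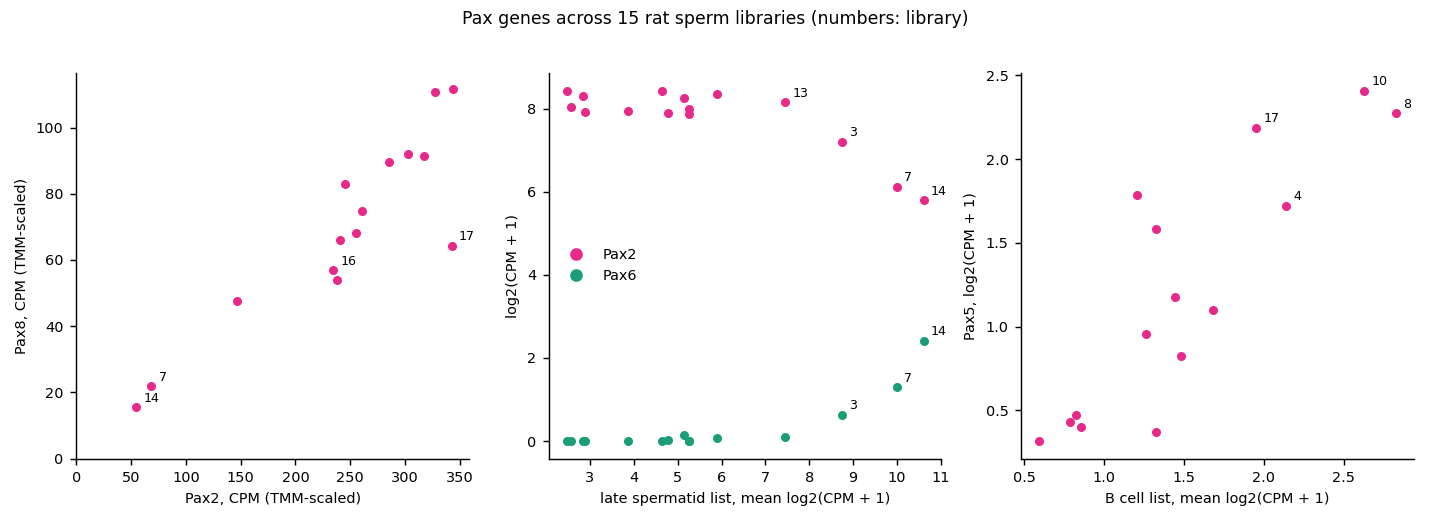
The 15 rat sperm libraries: Pax8 against Pax2 in TMM-scaled CPM (left), Pax2 and Pax6 against the mean log2(CPM + 1) of the late spermatid list (middle), and Pax5 against that of the B cell list (right). Each point is a library and numbers name some of them; libraries 14 and 7 have the lowest Pax2 (54.4 and 68.5 CPM) and the highest late spermatid scores.

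In the rat ovary Pax8 and Pax9 were higher than in female brain, and Pax6, Pax3, Pax7 and Pax5 were lower. That made 2 higher and 4 lower among 7 members tested, where 56.9% of all 20801 genes tested were called (27.7% higher and 29.2% lower). Pax8, which in the adult female tract marks the oviduct lining, had a mean of 9.58 ± 4.22 CPM in ovary (SD, n = 14) against 0.398 ± 0.342 CPM in female brain (n = 14), without overlap (log2 difference 4.60 ± 0.38 (SE), adjusted p = 1.25e-12). Pax9 was 0.459 to 1.46 CPM in ovary and at most 0.150 CPM in female brain (log2 difference 3.85 ± 0.30, adjusted p = 4.22e-13). Pax2 did not pass the test (4.39 ± 2.75 against 3.34 ± 2.03 CPM, log2 difference 0.42 ± 0.30, adjusted p = 0.190). Pax6 was at most 0.0731 CPM in any ovary library and at least 10.8 CPM in any female brain library. In CPM of unscaled totals brain library 1 gave 0.797. Pax3 had 6 counts over all 14 ovary libraries, and Pax1 had none, which allows up to 0.00387 CPM over the group. Pax5 fell from 1.44 ± 0.499 to 0.465 ± 0.336 CPM (log2 difference −1.61 ± 0.25, adjusted p = 6.08e-07), with ovary library 2 highest at 1.54 CPM. All 4 tested B cell genes were higher in ovary, where the list summed to 16.8 to 50.9 CPM per library.

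Pax8 varied from 1.85 CPM in ovary library 18 and 3.22 CPM in library 26 to 15.5 CPM in library 21. The score of oviduct and surface epithelium genes was also lowest in libraries 18 and 26 (3.14 and 3.76) and highest in library 21 (6.23). Across the 14 ovaries r was 0.86 and rho 0.74 (permutation p = 0.00022 and 0.00371, adjusted over the 8 relations 0.000293 and 0.00594; r = 0.72 without libraries 18 and 21). All 8 listed genes found in the rat table were at 1 CPM or more in the ovary mean, Epcam at 32.8 CPM, Krt8 at 66.4 CPM and Foxj1, the master gene of motile cilia, at 30.2 CPM among them. How much of the Pax8 level came with such tissue was not tested.

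Of the duct regulators 5 were higher in ovary, Wt1, Osr1, Hoxa9 and Hoxa10 among them, and 2 were lower (Lhx1 and Sall1), of 9 tested, with a median log2 difference of 1.498 beside 0.02 over all genes tested. Wt1, a gonad and kidney regulator, was at 51.2 CPM in ovary and 0.03 CPM in female brain. All 7 tested genes of the midbrain and hindbrain border were lower in ovary (En1, En2, Otx2, Gbx2, Wnt1, Lmx1b and Fgf17). Of the partner genes 4 were higher (Six4, Six5, Eya2, Eya3) and 3 lower (Six3, Eya1, Eya4) of 10 tested.

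Whole rat brain showed no called difference between the sexes in any tested member. Under edgeR 0 of 7 members were called, 0 had an unadjusted p below 0.05 and DESeq2 called 0, where 0.0583% of all 20570 genes tested were called (0.0146% higher and 0.0438% lower). Ribosomal RNA genes took a median of 13.15% of counts in female brains and 3.63% in male brains, and their part in the comparison was not tested. Without libraries 1 and 4 again 0 of 7 members were called. Pax6 was 16.7 ± 4.47 CPM in females (SD, n = 14) and 18.0 ± 4.23 CPM in males (n = 15), and the log2 difference was −0.10 ± 0.13 (SE). The log2 differences of Pax2, Pax3 and Pax5 were 0.15 ± 0.24, 0.05 ± 0.24 and 0.05 ± 0.19, and those of Pax4, Pax7 and Pax8 were −0.40 ± 0.37, 0.39 ± 0.29 and 0.19 ± 0.37.

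The spread between brains was larger than the difference between the sexes, and for Pax6 it went with cerebellar genes. Pax6 ranged from 10.8 to 27.3 CPM over 29 brains. On unscaled totals it ranged from 0.797 CPM in library 1 and 3.27 CPM in library 4 to 34.0 CPM in library 14. On the TMM scale library 26 was highest both in Pax6 and in the summed granule cell genes (979 CPM). The lowest sum, 255 CPM, was in library 5, with Pax6 at 11.5 CPM. Pearson's r with the granule cell list was 0.84 and rho 0.87 (permutation p = 1e-05 for each, the smallest that 100000 resamples give, adjusted 2.67e-05 and 8e-05, n = 29). It was 0.91 in the 14 females, 0.81 in the 15 males, 0.83 without libraries 5 and 26 and 0.84 without libraries 1 and 4. Pax2 went with the list of cerebellar inhibitory interneurons and Purkinje cells (r = 0.80, rho = 0.65, permutation p = 1e-05 and 0.00024, adjusted 2.67e-05 and 0.00096; 0.86 in females, 0.74 in males, 0.66 without libraries 5 and 26, 0.83 without libraries 1 and 4). Pax2 is known to mark the precursors of those interneurons.

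Pax4 was 0.447 ± 0.427 CPM over the 29 brains and passed 1 CPM in library 14 (2.195 CPM) and library 2 (1.53 CPM) only. Those libraries also had the highest summed pineal and retina genes, 446 and 715 CPM, against a median of 4.18 CPM over all brains. Since the pineal scores fall into a dense low group and a few high libraries, no correlation is given for Pax4. No relation past the threshold was found for Pax7 with the pituitary list (r = −0.02, rho = −0.01, permutation p = 0.909 and 0.944, adjusted 0.909 and 0.944; 0.11 without libraries 9 and 23), or for Pax8 with the choroid plexus list (r = 0.19, rho = 0.10, permutation p = 0.324 and 0.605, adjusted 0.370 and 0.691; 0.30 without libraries 4 and 12). For Pax8 r was 0.56 in females and −0.27 in males, and 0.26 without libraries 1 and 4 (permutation p = 0.201, adjusted 0.251). With unscaled totals it was 0.43 and passed the threshold (rho = 0.30, permutation p = 0.0206 and 0.116, adjusted 0.0235 and 0.116), but was 0.19 without libraries 1 and 26, the farthest from the median.

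**Figure D3:**
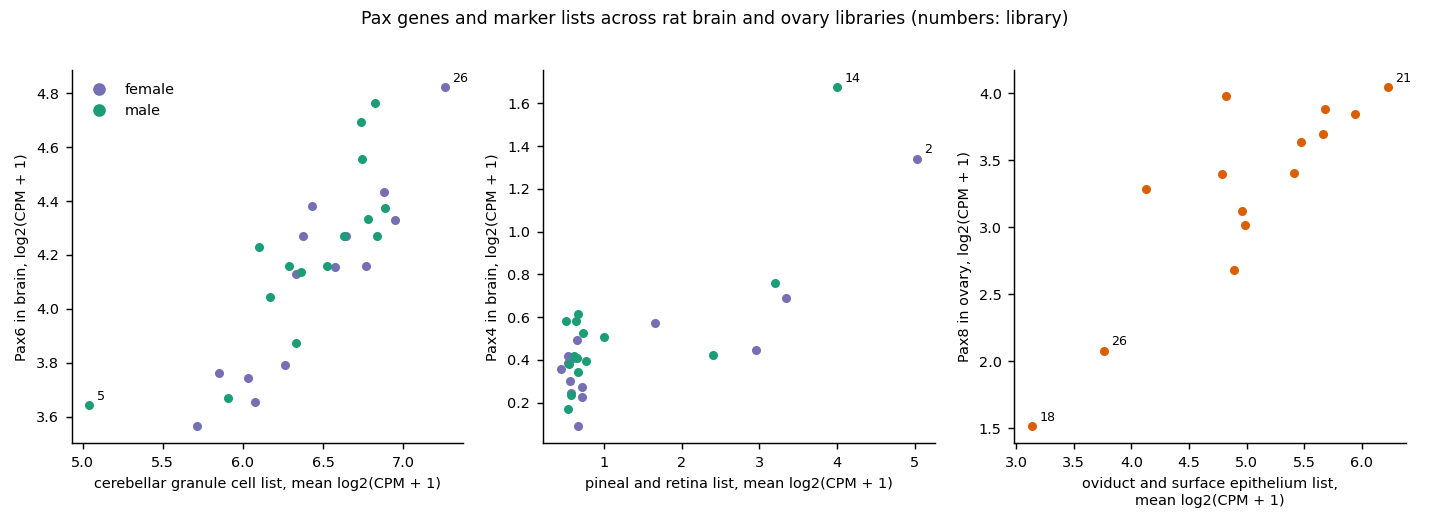
Pax6 and Pax4 in 29 rat brain libraries and Pax8 in 14 ovary libraries, each on the log2(CPM + 1) scale against the mean log2(CPM + 1) of a marker list. Each point is a library, colours in the first 2 panels give the sex, and numbers name the libraries at the ends; brain library 26 is highest in Pax6 (27.3 CPM) and ovary library 18 lowest in Pax8 (1.85 CPM).

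In the sheep brain the cerebellum stood apart: PAX6, PAX3 and PAX2 were higher there than in the other 9 regions, and PAX5, PAX8 and PAX1 were lower. These were 6 of 7 members tested, beside 28.8% of all 21147 genes tested (9.35% higher and 19.5% lower). PAX9 was not called, and PAX4 and PAX7 were filtered out. With unscaled totals the calls over all genes moved from 1977 higher and 4116 lower to 2821 and 3342, and the same 6 members were called. PAX6 was 92.2, 101, 73.5, 88.5 and 106 CPM in the cerebellum of sheep 687, 688, 690, 694 and 699, and 5.73 to 22.0 CPM in the other 45 libraries, with no overlap. The mean of 92.3 ± 12.6 CPM (SD, n = 5) was 7.40 times the mean of the other regions (log2 difference 2.89 ± 0.14 (SE), adjusted p = 1.70e-21).

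PAX3 gave 12.2, 12.2, 12.4, 11.3 and 13.1 CPM in the cerebellum of the same 5 sheep, and PAX2 gave 7.54, 6.60, 6.43, 6.63 and 6.75 CPM. Each lay above all 45 other libraries, and the ratios of mean CPM were 44.4 and 34.9 (adjusted p = 1.02e-15 and 2.23e-22). Fitted log2 differences of these genes depend on the prior count of the fit, since some regions held no count, and are not given as sizes. PAX3 had no count in the motor, posterior parietal, prefrontal and visual cortex, which allows at most 0.0113 CPM over the 5 libraries of a region. PAX2 had none in the visual cortex. PAX5 and PAX8 were near 0 in the cerebellum of every sheep, at 0.0680 to 0.3901 and 0.0135 to 0.145 CPM. Their means were 0.0483 and 0.0274 times those of the other regions (log2 differences −4.17 ± 0.61 and −5.13 ± 0.52, adjusted p = 1.54e-07 and 1.66e-11). PAX1 had a count in 1 of the 5 cerebellum libraries (mean 0.00269 CPM, adjusted p = 7.87e-04).

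The granule cell genes summed to 2006 to 2384 CPM per cerebellum library, all 6 were called higher there, and the means were 244 CPM for GABRA6, 551 CPM for ZIC1 and 207 CPM for NEUROD1. Genes of the interneuron and Purkinje list were also present there, TFAP2B at 25.0 CPM, PVALB at 88.7 CPM and PCP2 at 82.8 CPM. Of the midbrain and hindbrain border regulators EN1, EN2 and OTX2 were higher in the cerebellum and GBX2 and WNT1 lower, of 6 tested. EN2, an engrailed gene of that border, had a mean of 120 CPM in the cerebellum. SIX4 was the 1 higher gene among the partner genes, and SIX3, EYA1, EYA2 and DACH2 were lower, of 10 tested.

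Across the 10 region means the nearest patterns, among 13717 named genes at 1 CPM or more in a region, were shared by PAX2 and PAX3. PAX2 was closest to BARHL1 (r = 0.9998), PAX3 (0.9994) and LHX5 (0.996), and PAX3 to PAX2, BARHL1 and LHX5. Outside the cerebellum and pons the region means were at most 0.0381 CPM for PAX2 and 0.0828 CPM for PAX3. These r therefore rest mainly on the cerebellum and pons. BARHL1 and LHX5 are homeobox genes that peaked in the cerebellum too, at 10.2 and 1.61 CPM. PAX6 was closest to SLC27A3 (0.987), CCDC82 and BRD1. The likeness does not extend to single libraries of the pons, where BARHL1 was 8.43, 1.64, 0.0613, 3.27 and 0.239 CPM in sheep 687, 688, 690, 694 and 699 and PAX2 was 0.0359, 3.45, 2.96, 0.985 and 0.761 CPM. These r describe 10 means from the same 5 sheep and carry no p.

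**Figure D4:**
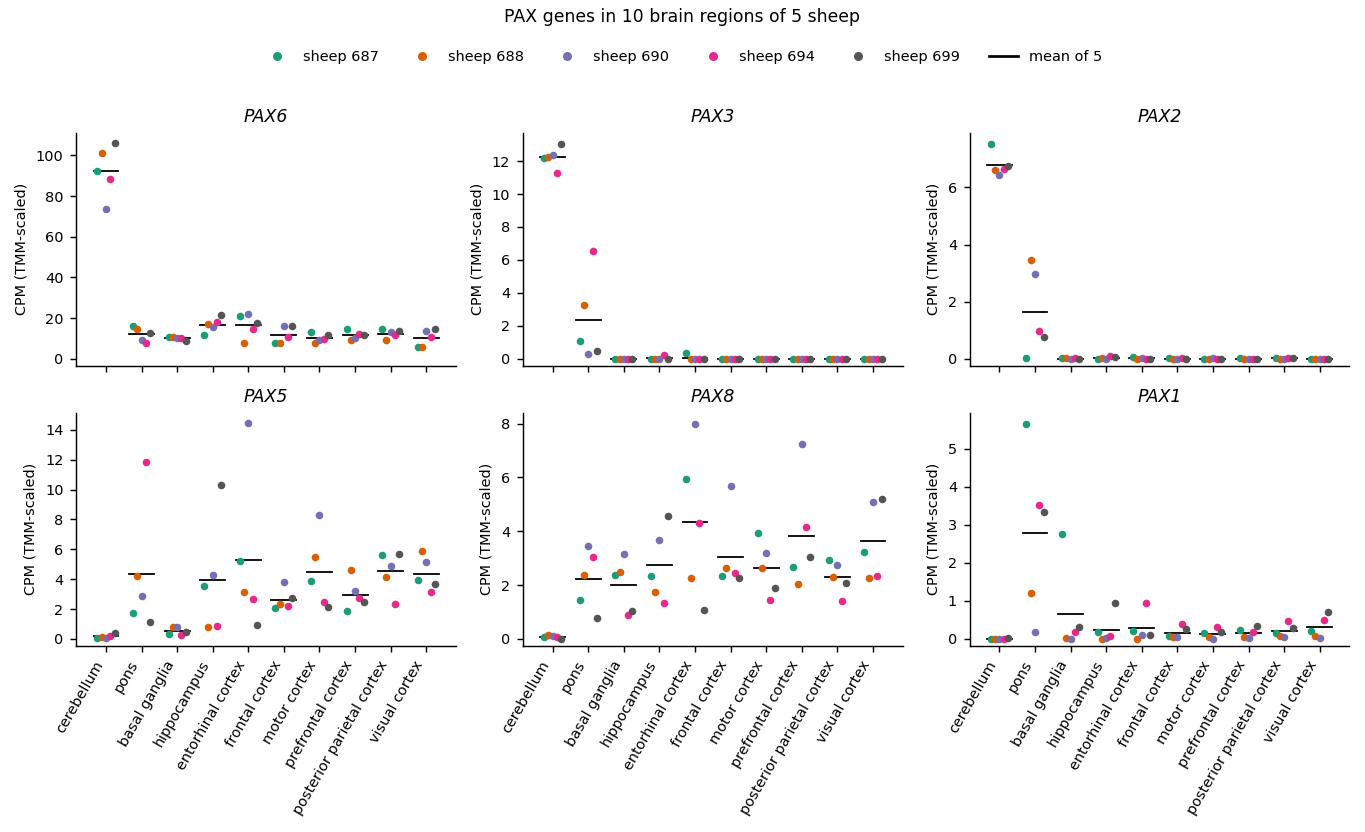
Levels of 6 PAX genes in 10 brain regions of 5 sheep, in TMM-scaled CPM with a separate axis for each gene. Points are libraries coloured by sheep and black lines are means of 5; PAX6, PAX3 and PAX2 are highest in the cerebellum (92.3, 12.2 and 6.79 CPM), where PAX5, PAX8 and PAX1 are near 0.

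The pons was the other hindbrain region, and its members differed widely between sheep. PAX3, PAX1 and PAX2 were higher there than in the mean of the other 9 regions on the log scale, 3 of 7 members tested, beside 9.66% of all genes higher and 9.02% lower. For PAX3 and PAX2 the mean CPM of the pons (2.34 ± 2.63 and 1.64 ± 1.48, SD, n = 5) stayed below that of the cerebellum, with no overlap. PAX1, a gene of the skeleton, was 5.67, 1.196, 0.184, 3.54 and 3.34 CPM in the pons of sheep 687, 688, 690, 694 and 699 (log2 difference 4.20 ± 0.58 (SE), adjusted p = 6.39e-08). Sheep 688 and 690 lay within the range of the other regions, which reached 2.75 CPM. PAX2 was 0.0359, 3.45, 2.96, 0.985 and 0.761 CPM in the same order, and PAX3 was 1.08, 3.30, 0.291, 6.55 and 0.508 CPM (adjusted p = 7.67e-16 and 2.35e-11). The sheep with the most PAX1 thus had the least PAX2.

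PAX5 in the pons was 1.76, 4.18, 2.85, 11.9 and 1.10 CPM, and its log2 difference of 1.00 ± 0.39 (adjusted p = 0.0297) fell just under the fold set for a call. With the animal as a block PAX5 was called, at 1.14. PAX7, a gene of the dorsal midbrain and of muscle progenitors, was filtered out; its pons levels were 0.161, 0.0153, 0.107, 0.580 and 0.582 CPM, and sheep 694 and 699 were the highest of all 50 brain libraries. Without sheep 690 both PAX5 and PAX7 were called, which made 5 calls.

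Markers also differed between these 5 libraries. The midbrain and hindbrain border genes summed to 2.12, 4.95, 8.68, 52.5 and 10.9 CPM, and the sheep with most, 694, also had the most PAX3 and PAX5. The match did not extend to the other sheep. Sheep 699, next in the border genes at 10.9 CPM, had the least PAX5, and sheep 690, at 8.68 CPM, had the least PAX3. In sheep 694 EN1 was 15.9 CPM, EN2 20.6 CPM and OTX2 11.9 CPM, against at most 5.33, 2.93 and 0.996 CPM in the other 4. The granule cell genes summed to 40.6 to 115 CPM and the interneuron and Purkinje genes to 8.09 to 76.2 CPM in the pons. GABRA6, found in granule cells, was at most 2.44 CPM there. The part of the dissection in the PAX levels was not tested. Of the border regulators 5 were higher in the pons than elsewhere (EN1, EN2, OTX2, GBX2, LMX1B) and WNT1 was lower, and 1 of 10 partner genes was higher (SIX3). The region means most like those of PAX1 were those of KCTD10 (r = 0.986) and DEPDC7 (0.985).

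**Figure D5:**
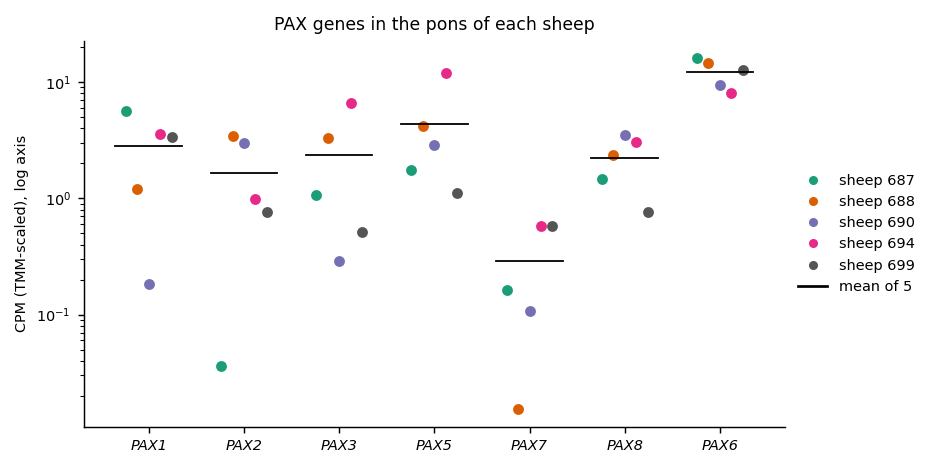
Levels of 7 PAX genes in the pons of each of 5 sheep, in TMM-scaled CPM on a log axis. Points are libraries coloured by sheep and black lines are means of 5; PAX2 runs from 0.0359 CPM in sheep 687 to 3.45 CPM in sheep 688, while PAX6 stays between 8.05 and 16.0 CPM.

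In the neocortex, the mean of frontal, motor, prefrontal, posterior parietal and visual cortex, PAX5 and PAX8 were higher than in the mean of the other 5 regions on the log scale, and PAX3 and PAX2 were lower. That was 4 of 7 members tested, beside 8.89% of all genes (5.27% higher and 3.61% lower). The log2 differences were 1.24 ± 0.26 (SE) for PAX5 and 1.16 ± 0.21 for PAX8 (adjusted p = 1.26e-04 and 8.97e-06). Neocortical PAX5 was 1.84, 3.66 and 8.31 CPM in the lowest, median and highest of 25 libraries, and PAX8 was 1.41, 2.63 and 7.23 CPM. Both overlapped the other regions, not all of which were lower. Mean PAX5 was 3.79 CPM in neocortex, against 5.28 CPM in entorhinal cortex, 4.36 in pons, 3.96 in hippocampus, 0.535 in basal ganglia and 0.178 in cerebellum. Mean PAX8 was 3.09 CPM in neocortex, against 4.33 CPM in entorhinal cortex, 2.73 in hippocampus, 2.22 in pons, 1.98 in basal ganglia and 0.0814 in cerebellum. The cerebellum was thus the lowest region for both genes. PAX2 and PAX3 summed to 13 and 1 counts over all 25 neocortical libraries. The PAX3 call was lost without sheep 687. PAX6 was lower by 0.84 ± 0.11 on the log2 scale (adjusted p = 3.40e-08), under the fold set for a call, with means of 11.3 ± 2.96 CPM in neocortex and 29.6 ± 32.7 CPM in the rest.

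Within the neocortex no tested member was called between the anterior regions (frontal, motor, prefrontal) and the posterior ones (posterior parietal, visual). Under edgeR 0 of 7 were called, 0 had an unadjusted p below 0.05 and DESeq2 called 0, beside 0.00473% of all genes. The log2 difference of PAX6 was −0.01 ± 0.16, and those of PAX5 and PAX8 were −0.46 ± 0.36 and 0.11 ± 0.28.

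In the entorhinal cortex PAX5 and PAX8 were called higher (log2 differences 1.28 ± 0.38 and 1.23 ± 0.29, adjusted p = 0.0441 and 0.00812), 2 of 7 beside 2.24% of all genes (2.23% higher and 0.0142% lower). The reference was the mean of the other 9 regions on the log scale, to which the cerebellum contributed with means of 0.178 and 0.0814 CPM. The ratios of mean CPM were 1.70 and 1.74, and the ranges overlapped. PAX5 was 5.19, 3.15, 14.4, 2.703 and 0.930 CPM in sheep 687, 688, 690, 694 and 699, and PAX8 was 5.96, 2.27, 8.00, 4.32 and 1.08 CPM. Sheep 690 was highest and sheep 699 lowest in both genes. Neither call held without sheep 687 or without sheep 690, and the PAX8 call was also lost without sheep 694. PAX5 was not called with the animal as a block (log2 difference 1.16, adjusted p = 0.0876), by DESeq2 (adjusted p = 0.0588) or with no low-count filter (adjusted p = 0.0504). Over region means PAX5 was most like ZBTB16 (r = 0.977), FASN and RBMS3, and PAX8 most like MAP3K5 (0.976), ZPBP and IGFBP3.

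In the hippocampus 0 of 7 members were called by edgeR, with 1 at an unadjusted p below 0.05 (PAX5) and 0 by DESeq2, beside 4.62% of all genes (3.46% higher and 1.15% lower; as numbers 732 and 244, and 991 and 168 with unscaled totals). PAX6 there was 11.8, 17.2, 15.5, 18.1 and 21.7 CPM, a mean of 16.9 ± 3.63 CPM that was second to the cerebellum and overlapped the entorhinal cortex at 16.7 ± 5.76 CPM. PAX6 in the remaining 7 regions had means from 10.2 to 12.4 CPM, and each neighbour in that order overlapped the next. In the basal ganglia PAX5 was lower (0.535 ± 0.257 CPM, log2 difference −2.38 ± 0.53, adjusted p = 5.21e-04) and PAX1 higher (log2 difference 1.85 ± 0.69, adjusted p = 0.0401), 2 of 7 beside 10.3% of all genes (5.54% higher and 4.75% lower). With unscaled totals the calls over all genes there were 841 higher and 1523 lower, from 1172 and 1004, and PAX1 was not called, as with DESeq2. PAX1 in the basal ganglia was 2.75 CPM in sheep 687 and 0.0156, 0, 0.189 and 0.306 CPM in sheep 688, 690, 694 and 699. Without sheep 687 its log2 difference was −0.54. PAX8 in the basal ganglia (1.98 ± 0.983 CPM) lay above the cerebellum in every sheep, while PAX5 there overlapped the cerebellum.

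PAX4, PAX7 and PAX9 were low throughout the sheep brain. PAX4 had 3 counts in all 50 libraries, PAX7 had 184 and was at 0 in the basal ganglia, and PAX9 had means from 0.0650 to 0.155 CPM by region and was called in none of the 7 brain comparisons.

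In sheep sperm PAX5 was the member with the most counts. Its level was 81.3, 63.2, 17.1, 46.7 and 90.8 CPM in the sperm of sheep 687, 688, 690, 694 and 699, with 52 to 809 counts, and 0.0680 to 14.4 CPM in the 50 brain libraries. On the TMM scale the lowest sperm value was above the highest brain value (log2 difference 4.65 ± 0.30 (SE), adjusted p = 4.24e-20). The scaling bears on the size: the median log2 difference of all genes was −0.42 with TMM factors, 0.31 with upper quartile factors and −2.84 with unscaled totals, and that of PAX5 was 2.10 with unscaled totals. Mean PAX5 in CPM of unscaled totals was 12.1 ± 5.49 in sperm and 3.96 ± 3.80 in brain.

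The B cell list was present in the same sperm libraries. All 6 of its genes were called higher in sperm, where 33.1% of all 21859 genes tested were higher. Each was at 1 CPM or more in the sperm mean. They summed to 53.3, 71.2, 18.8, 74.6 and 126 CPM in sheep 687, 688, 690, 694 and 699, against at most 5.12 CPM in any brain library. Sheep 690 was lowest and sheep 699 highest both in the B cell list and in PAX5. Among sheep 687, 688 and 694 the order was reversed, with PAX5 highest in 687 and the list highest in 694. CD79B was 5.92 to 29.2 CPM per sperm library. With 5 libraries no correlation is given, and the part of these cells in the PAX5 level was not tested.

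Of 7 members tested in sheep sperm against brain, 4 were higher (PAX5, PAX3, PAX9, PAX2) and PAX6 was lower, beside 74.2% of all 21859 genes (33.1% higher and 41.1% lower). As numbers of genes these were 7239 and 8976, against 8907 and 6980 with upper quartile factors, 9913 and 8118 with DESeq2 and 3249 and 15084 with unscaled totals. PAX6 was 0, 0.485, 1.64, 2.44 and 0 CPM in sperm, below every brain library (log2 difference −4.16 ± 0.41, adjusted p = 2.44e-13). The zeros of PAX6, and those of PAX9 below, fell in sheep 687 and 699. Their sperm libraries had only 756 and 1018 genes with 1 to 3 counts, against 1415 in sheep 694, 2810 in 688 and 3210 in 690. Whether low counts were lost there was not tested. The other sperm calls rest on few counts. PAX2 had 14, 19, 11, 9 and 0 counts in sheep 687, 688, 690, 694 and 699, PAX3 had 11, 0, 3, 16 and 3, and PAX9 had 0, 45, 7, 10 and 0. PAX2 and PAX3 were called against the mean of the regions on the log scale, to which several regions near 0 contribute, and both stayed below every cerebellum library. PAX9 had a mean of 1.41 ± 1.57 CPM in sperm and 0.104 ± 0.0649 CPM in brain (log2 difference 3.79 ± 0.45, adjusted p = 1.19e-10). PAX8 was not called (log2 difference 0.93 ± 0.36, adjusted p = 0.0158). It was 10.4 CPM in sheep 694 and 0.987 to 4.27 CPM in the other 4, its log2 difference was −1.30 with unscaled totals, and it was called higher at 1.06 with the animal as a block and at 1.12 to 1.33 without sheep 687, 688 or 690. PAX2 did not exceed 3.62 CPM in sheep sperm, with a mean of 1.61 CPM and 0.342 CPM of unscaled totals. GATA3 and WT1 of the duct regulators were higher and SALL1 lower in sheep sperm, of 6 tested, and SIX2, EYA1 and EYA3 were higher and SIX5 lower of 10 partner genes tested.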

How the data were processed

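RNA of 113 libraries was sequenced as 150-base read pairs. Per the labels' protocols and the series' design text, reads were trimmed with Trimmomatic 0.39 and aligned with STAR 2.7.5a to the rat build GRCr8 or the sheep build ARS-UI_Ramb_v3.0. The deposited values are whole-number counts per gene and library, which the authors made with Rsubread 2.20.0 in R 4.4.2. The sources used here do not give strand and multi-mapping settings.

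Groups and sheep numbers came from the labels, and no 2 libraries agreed within sampling noise. The counts were tested with edgeR 4.0.16 (quasi-likelihood, TMM factors, filterByExpr, Benjamini-Hochberg over all genes tested) in R 4.3.3, over 11 comparisons; the standard error is the fold change over the root of F. A region was contrasted with the mean of the other regions on the log scale. The test was tried on simulated data. Alternatives were DESeq2 1.42.0, RLE and upper quartile factors, no low-count filter, the animal as a block, each sheep left out in turn, rat sperm libraries 16 and 17 left out and, chosen after seeing the data, unscaled library totals and rat brain libraries 1 and 4 left out. Ribosomal RNA genes are those of that type in RefSeq (159 in the rat table) and stayed in the library totals. Correlations used log2(CPM + 1), 100000 permutations and scipy 1.17.1. Intervals and floors (3 counts over a group) cover counting error only.

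Members and gene lists were chosen with earlier results of these data known. All 9 members are named, and of other genes those of the lists and, by correlation, the 3 nearest patterns per member over sheep regions and the 5 nearest to Pax2 in rat sperm. A few genes that this rule names are not reported here. Lists were also read for astrocytes, olfactory bulb, muscle and accessory glands, without a result here. Sheep libraries pair by animal, as labelled. Over 225 pairs of regions the median correlation of deviations between libraries of the same sheep was 0.147 (range −0.498 to 0.741). The series' text gives 14 female and 15 male rats, so libraries of 1 rat tissue were taken as separate animals. The gonad and brain libraries of a sex carry the same numbers, so each number is probably 1 rat, though the labels do not state it. The main rat fits did not take equal numbers as pairs. The main sheep and rat fits left the animal out. Their p-values treat libraries of the same sheep, or of the same rat number, as independent samples. With that limit, p-values measure the spread between these samples.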

Additional observations from a re-analysis of the deposited data

Results flagged for a closer look

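In 39 sets of 5 sheep libraries, 1 per member and group with a library at 1 CPM or more, 3 had a highest library that stood apart from the others, where chance flags about 1 in 20. The gap to the nearest library was compared with 0.71 of the whole range. PAX1 in the basal ganglia was 2.75 CPM in sheep 687, with the next library at 0.306 CPM and a gap of 0.889 of the range. PAX5 in the pons was 11.9 CPM in sheep 694, with the next at 4.18 CPM and a gap of 0.714. PAX8 in the frontal cortex was 5.67 CPM in sheep 690, with the next at 2.62 CPM and a gap of 0.894.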

How the results depend on the processing

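The 6 PAX calls in the cerebellum and the absence of calls between the sexes and between anterior and posterior neocortex held under all alternatives run. Leaving out each sheep gave 3 to 5 calls in the pons (5 without sheep 690), 1 to 2 in the basal ganglia, 0 to 2 in the entorhinal cortex, 3 to 4 in the neocortex and 5 to 6 in sheep sperm. With each sheep left out PAX1 in the basal ganglia ran from −0.54 (without sheep 687) to 2.48, and unscaled totals left 1 call there. With no low-count filter the hippocampus had 1 call and the entorhinal cortex 1, and the entorhinal cortex also had 1 with DESeq2 and with the animal as a replicate block. PAX8 in sheep sperm turned to −1.30 with unscaled totals; the cause was not tested. The block kept 66 of 69 member results on their side of the threshold and changed PAX5 in the entorhinal cortex and pons and PAX8 in sheep sperm. For rat libraries of the same number the median correlation of deviations was 0.030 between ovary and brain (1 of 14 pairs over 0.1). It was 0.062 between sperm and brain (3 of 15). No pairs of different numbers were set beside these, so the values cannot tell whether equal numbers are 1 rat. With the number as a block all calls moved from 11832 to 11837 in ovary and from 12111 to 11925 in sperm.

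Counts over all genes moved by more than 1.5 times in the hippocampus (976 to 625 without sheep 688), the entorhinal cortex (474 to 310 without sheep 694 and 249 without sheep 699), anterior against posterior neocortex (1 to 0 or 2), ovary (11832 to 18799 with no filter), the sexes (12 to 19 with no filter, 37 with DESeq2 and 22 without brain libraries 1 and 4) and rat sperm (12111 to 22067 with no filter and 18371 with DESeq2). In rat sperm the split of 5663 higher and 6448 lower became 12974 and 9093 with no filter, 4384 and 7541 with the block, 4931 and 7135 with RLE factors and 4684 and 7366 with unscaled totals. The median of all genes in rat sperm moved from −0.03 to −0.28 with RLE factors and −0.35 with unscaled totals, in ovary from 0.02 to 0.30 with unscaled totals, and between the sexes from 0 to −0.22. Leaving out rat brain libraries 1 and 4 changed no member call. Unscaled totals moved the median of all genes in the cerebellum from −0.05 to 0.18 and in the basal ganglia from −0.01 to −0.24, and raised mean PAX6 in the cerebellum to 123 CPM, PAX3 to 16.2 CPM and PAX2 to 9.01 CPM. Depth limits the low members: sperm of sheep 690 and several cortical regions held few or no counts of PAX1, PAX2, PAX3, PAX4, PAX7 and PAX9.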
